A study of Mus musculus with 6 samples.

Results

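Claudins and occludin, the membrane proteins of tight junctions, were followed by the RNA of 10 genes, Cldn1, Cldn3, Cldn4, Cldn7, Cldn8, Cldn10, Cldn12, Cldn16, Cldn23 and Ocln, taken by symbol from the 47360 gene symbols measured in mouse dental epithelial organoids (DEOs). DEOs were grown in Matrigel for 14 days from adult dental epithelial stem cells (aDESCs) that came from the apical buds of incisors of wild-type female C57BL/6J mice aged 9 weeks. Every medium held Wnt3a, R-spondin1, EGF (100 µg/ml) and Noggin (200 µg/ml), and this common medium is +N. The +ND medium also held dibenzazepine (DBZ, 10 µM; the methods text writes mM), a γ-secretase inhibitor that blocks the cleavage by which Notch receptors are activated, the +NF medium held FGF10 (100 µg/ml), and the +NFD medium held both. Bulk RNA-seq gave 1 library per medium, so differences between media rest on single libraries and carry no p-value. How many animals gave cells to a library is not given in the sources used here, and the media with Jagged1, +NJ and +NFJ, were not analysed here.

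Tight junctions close the space between neighbouring epithelial cells near their apical surface. Claudins are small tetraspan proteins that polymerise into strands, and the set of claudins in a cell decides whether the strand seals the gap or leaves a pore for chosen ions. Occludin, a tetraspan protein of another family, sits in the same strands, and scaffolds such as the ZO proteins tie them to actin. In stratified epithelia the functional junctions lie in the granular layer, where claudin-1 is needed for the skin's water barrier, and in incisors the enamel-forming cells also carry claudins.

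Levels are given as FPKM, fragment numbers divided by transcript length and library size, a scale per length on which different genes can be set side by side. Changes are log2((FPKM + 1)/(FPKM + 1)) between 2 libraries, which understates the change of low genes. A gene was counted in a comparison if its FPKM reached 1 in the higher library and was called higher or lower at a 2-fold ratio, that is, a log2 ratio of at least 1 or at most -1. Where a linear ratio is printed, the 95% interval beside it is an exact binomial one on the estimated fragments, and it covers counting error only, not the spread between cultures. From the steps between low values, the +N library held about 27500000 mapped fragments, +ND 22100000, +NF 28700000 and +NFD 29100000. Between 12529 and 12959 genes per library reached an FPKM of 1.

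Of the 10 genes, 9 reached an FPKM of 1 in at least 1 library, and only Cldn16 did not. Basal epithelial markers (Krt5, Krt14, Trp63, Itga6, Itgb4 and Col17a1) summed to between 12272 and 20824 FPKM, with all 6 above an FPKM of 1 in every library. Endothelial markers summed to between 1.19 and 1.72 FPKM over 7 genes, and the endothelial claudin gene Cldn5 was listed at 0 in all 4 libraries. Since these are whole organoids, fewer cells of a type and less RNA per cell cannot be told apart.

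The 250 bases before the RefSeq start site are shown for 5 of the genes on which the results turn. These are Cldn3, Cldn4 and Cldn7, which were lower with DBZ, Cldn1, which was higher with it, and Cldn10, which was high with FGF10. Sequences come from RefSeq on GRCm38.p6 and run 5′ to 3′ on the gene's own strand. Capitals mark letters that match a searched motif.
Cldn3, chr5:134985964-134986213, plus strand: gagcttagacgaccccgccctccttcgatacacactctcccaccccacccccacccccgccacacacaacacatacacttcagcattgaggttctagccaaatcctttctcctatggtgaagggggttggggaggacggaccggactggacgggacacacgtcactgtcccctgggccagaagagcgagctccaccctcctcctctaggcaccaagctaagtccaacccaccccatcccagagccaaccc
Cldn4, chr5:134946935-134947184, minus strand: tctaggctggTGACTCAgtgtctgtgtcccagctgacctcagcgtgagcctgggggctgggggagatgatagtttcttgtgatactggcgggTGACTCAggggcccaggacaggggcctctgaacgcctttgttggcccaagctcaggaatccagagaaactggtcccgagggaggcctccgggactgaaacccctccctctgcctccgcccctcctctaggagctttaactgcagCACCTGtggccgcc
Cldn7, chr11:69964529-69964778, plus strand: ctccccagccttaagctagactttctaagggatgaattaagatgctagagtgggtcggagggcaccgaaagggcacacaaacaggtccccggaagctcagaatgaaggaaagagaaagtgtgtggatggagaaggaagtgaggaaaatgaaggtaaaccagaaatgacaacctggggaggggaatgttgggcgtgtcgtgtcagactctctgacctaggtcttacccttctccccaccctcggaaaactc
Cldn1, chr16:26371840-26372089, minus strand: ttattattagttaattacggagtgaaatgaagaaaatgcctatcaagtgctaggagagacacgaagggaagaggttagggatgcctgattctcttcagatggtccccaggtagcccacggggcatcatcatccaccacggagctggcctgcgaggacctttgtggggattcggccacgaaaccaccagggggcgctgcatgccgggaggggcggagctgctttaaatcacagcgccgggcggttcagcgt
Cldn10, chr14:118787621-118787870, plus strand: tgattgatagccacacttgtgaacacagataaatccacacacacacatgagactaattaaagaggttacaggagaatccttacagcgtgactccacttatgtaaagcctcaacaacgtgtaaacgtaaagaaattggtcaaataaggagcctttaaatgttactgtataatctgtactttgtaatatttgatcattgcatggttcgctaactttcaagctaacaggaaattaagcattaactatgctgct

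Promoter windows of this kind were matched for 8 of the 10 genes, 13 windows in all, and Cldn8 and Cldn23 had no entry. The motifs searched, on both strands, were GTGGGAA (RBPJ, the DNA-binding partner of Notch), AACCNGTT (Grainyhead-like factors), CAGGTG (Snail factors), TGANTCA (AP-1), GGGTGTG (Krüppel-like factors) and TATAAA (the TATA box). They are found in 5.42%, 1.79%, 17.2%, 6.75%, 6.93% and 12.4% of 32851 mouse promoter windows of the same length. The Cldn4 window holds TGACTCA at 240 and at 158 bases before the start and CACCTG, the reverse complement of CAGGTG, at 14 bases before it. The printed windows of Cldn1, Cldn3, Cldn7 and Cldn10 hold none of the 6 motifs, which says only that these letters are not in these 250 bases. Of the windows not printed, the other Cldn7 start holds the Snail letters at 97 and 57 bases before it, Ocln holds them at 213 and 68 bases before its second start, and Ocln holds CACACCC, the reverse complement of GGGTGTG, at 180 bases before its first start. A match is a string of letters and not a measured binding site. The 5 windows differ in base composition, with a GC content of 60.8% for Cldn3, 62% for Cldn4, 51.2% for Cldn7, 55.6% for Cldn1 and 36% for Cldn10, against a median of 52.4% over all windows. Cldn10 has a further start, whose window has a GC content of 72.4% and 22 CpG dinucleotides, and values per gene do not show which of the starts was used.

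Levels differed widely between the genes of the set. Cldn4, which encodes a claudin of sealing strands that also binds Clostridium perfringens enterotoxin, was the most abundant of the 10 in all 4 media. It stood at 326 FPKM in +N and 176 in +NF, against 98.5 in +ND and 99.5 in +NFD. In +N it ranked 276 among all gene symbols, and in +ND it ranked 936. Cldn8, a sealing claudin known as a partner of claudin-4 in the kidney collecting duct, was the next in each library, at 107 FPKM in +N and 150 in +NF, against 78.6 in +ND and 88.1 in +NFD. Below these the order differed between media. Cldn7 stood above Cldn1 in +N (53.2 and 41.5 FPKM), the 2 were level in +NF (31.6 and 30.8), and Cldn1 stood above Cldn7 in +ND (71.6 and 12.9) and in +NFD (43.7 and 12.1). Cldn7, Cldn12 and Ocln lay close together in +ND, between 12.1 and 12.9 FPKM, and in +NFD, between 11.9 and 13.6. With 1 library per medium their order there cannot be told.

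**Figure D1:**
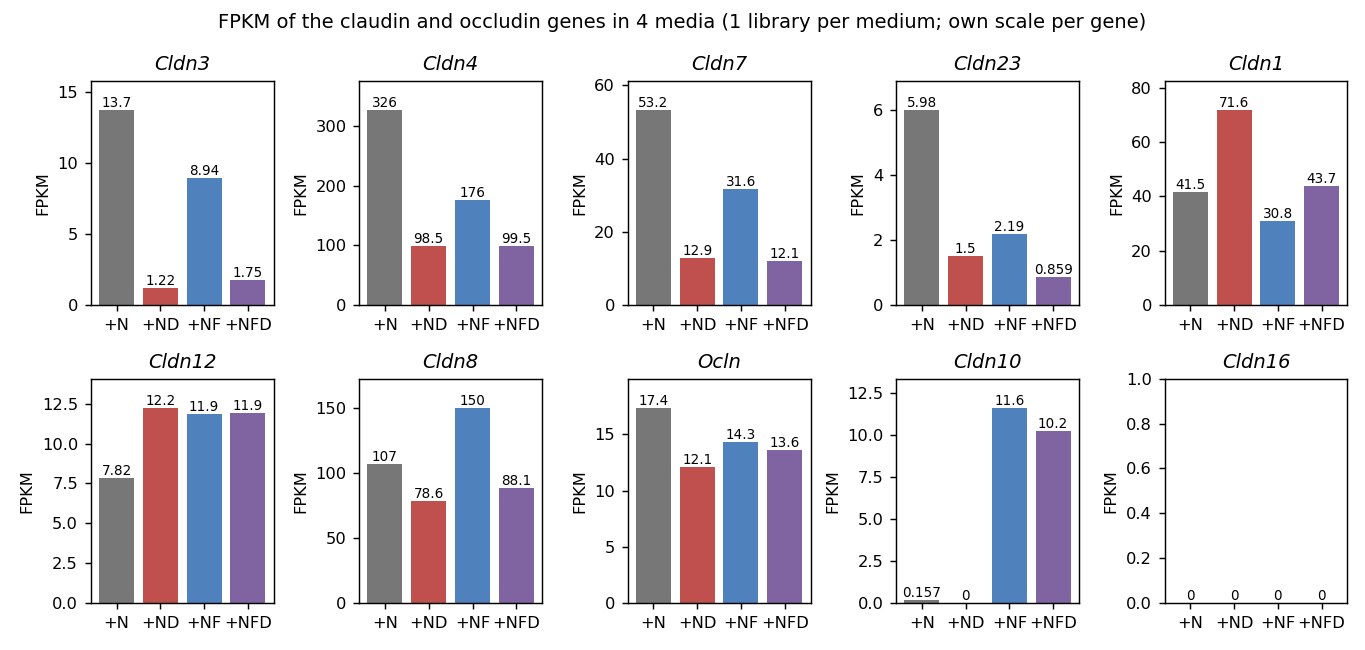
FPKM of each of the 10 genes (vertical axis, own scale per gene, starting at 0) in the +N, +ND, +NF and +NFD libraries, with 1 bar per library and no error bar since each medium has 1 library. Cldn3, Cldn4, Cldn7 and Cldn23 are highest in +N and lower in both media with DBZ than in either medium without it, Cldn1 is highest in +ND, Cldn10 is above 10 FPKM in the 2 media with FGF10 only, and Cldn16 is at 0 throughout.

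The question that +ND and +N address is how organoids grown with DBZ differed from those without it, in the absence of FGF10. Of 8 genes that passed the filter on low values, 4 were at least 2-fold lower in +ND (Cldn3, Cldn4, Cldn7 and Cldn23) and 0 were at least 2-fold higher. Over all 13173 genes tested in the same way, 5.29% were called lower and 5.88% higher; with ratios centred on their median these shares were 6.39% and 4.67%. The median log2 ratio of the 8 genes was -0.98, and that of all genes tested was 0.10. Cldn10 and Cldn16 did not reach an FPKM of 1 in either library.

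Cldn3, on chromosome 5 from 134986214 to 134987472 in GRCm38, encodes the other enterotoxin-binding claudin of the set and had the largest ratio. Its level was 13.7 FPKM in +N and 1.22 in +ND, a log2 ratio of -2.72. On the linear scale it was 11.2-fold lower, with a ratio of 0.0893 (0.0611 to 0.127) from about 474 fragments in +N and 34 in +ND. Only 0.622% of the genes tested had a lower ratio. The exons of Cldn3 overlap those of the antisense gene Wbscr25, and the strand setting is not stated. Wbscr25 was at no more than 0.0388 FPKM in any library.

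Cldn7 (chromosome 11, 69964779 to 69967885), whose protein is found along the lateral membrane of many epithelia and binds EpCAM, stood at 53.2 FPKM in +N and 12.9 in +ND. Its log2 ratio was -1.96, or 4.12-fold lower, with a linear ratio of 0.242 (0.216 to 0.271). Cldn4 (chromosome 5, 134945119 to 134946934) fell by 1.72 on the log2 scale, a linear ratio of 0.302 (0.291 to 0.312). In absolute terms the lower Cldn4 level accounted for most of the smaller claudin total, since the summed FPKM of the 10 genes was 573 in +N and 289 in +ND. Cldn23 (chromosome 8, 35824709 to 35826559), a less studied claudin, was at 5.98 FPKM in +N and 1.50 in +ND, a log2 ratio of -1.48 that rests on about 304 and 61 fragments. Its interval on the linear ratio of 0.251 was accordingly wide, from 0.186 to 0.330.

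The other measured genes differed by less than 2-fold between +ND and +N. Cldn1 (chromosome 16, 26356642 to 26371841) had the opposite direction, at 41.5 FPKM in +N and 71.6 in +ND, a log2 ratio of 0.77 and a linear ratio of 1.73 (1.66 to 1.79). Cldn12 (chromosome 5, 5489537 to 5514958), a claudin without the usual C-terminal PDZ-binding motif, was at 7.82 and 12.2 FPKM, a log2 ratio of 0.59. Cldn8 (chromosome 16, 88560828 to 88563183) had a log2 ratio of -0.44 and Ocln (chromosome 13, 100496507 to 100552718) one of -0.48. Ocln therefore differed less than Cldn3, Cldn4 and Cldn7 between these libraries.

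With FGF10 in both media, the same question is asked by +NFD and +NF, which share no library with +ND and +N. Here 9 genes passed the filter; 2 were called lower (Cldn3 and Cldn7) and 0 higher. Among all 13349 genes tested, 2.69% were called lower and 3.72% higher. The median log2 ratio was -0.76 over the 9 genes and 0.05 over all genes tested. Cldn3 was at 8.94 FPKM in +NF and 1.75 in +NFD, a log2 ratio of -1.85 and a linear ratio of 0.196 (0.147 to 0.256). Cldn7 was at 31.6 and 12.1 FPKM, a log2 ratio of -1.32 and a linear ratio of 0.382 (0.342 to 0.425). These were again the lowest ratios of the set.

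Cldn4 was at 176 FPKM in +NF and 99.5 in +NFD, a log2 ratio of -0.82, inside the 2-fold limit. Cldn23 was at 2.19 and 0.859 FPKM, a log2 ratio of -0.78. Its linear ratio was 0.391 (0.272 to 0.554), and without the pseudocount, which weighs on a gene this low, its log2 ratio was -1.35 and past the limit. Cldn8, at 150 FPKM in +NF and 88.1 in +NFD, had a log2 ratio of -0.76, and Cldn1, at 30.8 and 43.7 FPKM, one of 0.49. For Ocln the log2 ratio was -0.07 and for Cldn10 -0.17. Cldn12, at 11.9 FPKM in both, had a log2 ratio of 0.0035 that turned to -0.03 with upper-quartile scaling and to -0.04 when ratios were centred on their median.

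Set side by side, the log2 ratios on adding DBZ had the same sign without and with FGF10 for all 9 genes above 0, 2 of them higher (Cldn1 and Cldn12, the latter with the ratio near 0 that turned sign under scaling) and 7 lower. Over 13748 genes the sign was the same for 61.2%. Cldn10, counted among the 7, did not pass the filter without FGF10. The ratio with FGF10 minus that without it was 0.90 for Cldn4, 0.87 for Cldn3, 0.70 for Cldn23, 0.64 for Cldn7 and 0.42 for Ocln on the log2 scale, so all 5 were closer to 0 in the presence of FGF10. It was -0.58 for Cldn12, -0.32 for Cldn8, -0.28 for Cldn1 and 0.04 for Cldn10. The ratios of Cldn12, Cldn1 and Cldn10 were also closer to 0 with FGF10, and only that of Cldn8 was further from it. All genes had fewer calls on adding DBZ with FGF10 as well, at 2.69% lower and 3.72% higher, against 5.29% and 5.88% without it. None of the 9 differences reached 1 in size with a pseudocount of 1, but that of Cldn3 was 1.09 with a pseudocount of 0.1 and 1.13 without one. With a pseudocount of 1, the range from the lowest 5% to the highest 5% of all genes was -0.94 to 0.89. Over the genes that passed in both comparisons, this range was -1.08 to 1.02 with a pseudocount of 0.1. Without a pseudocount it was -1.09 to 1.04. A difference of 1 or more above or below 0 was held by 3.8% and 4.26% of all genes with a pseudocount of 1. None of these differences could be tested, with 1 library per medium.

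**Figure D2:**
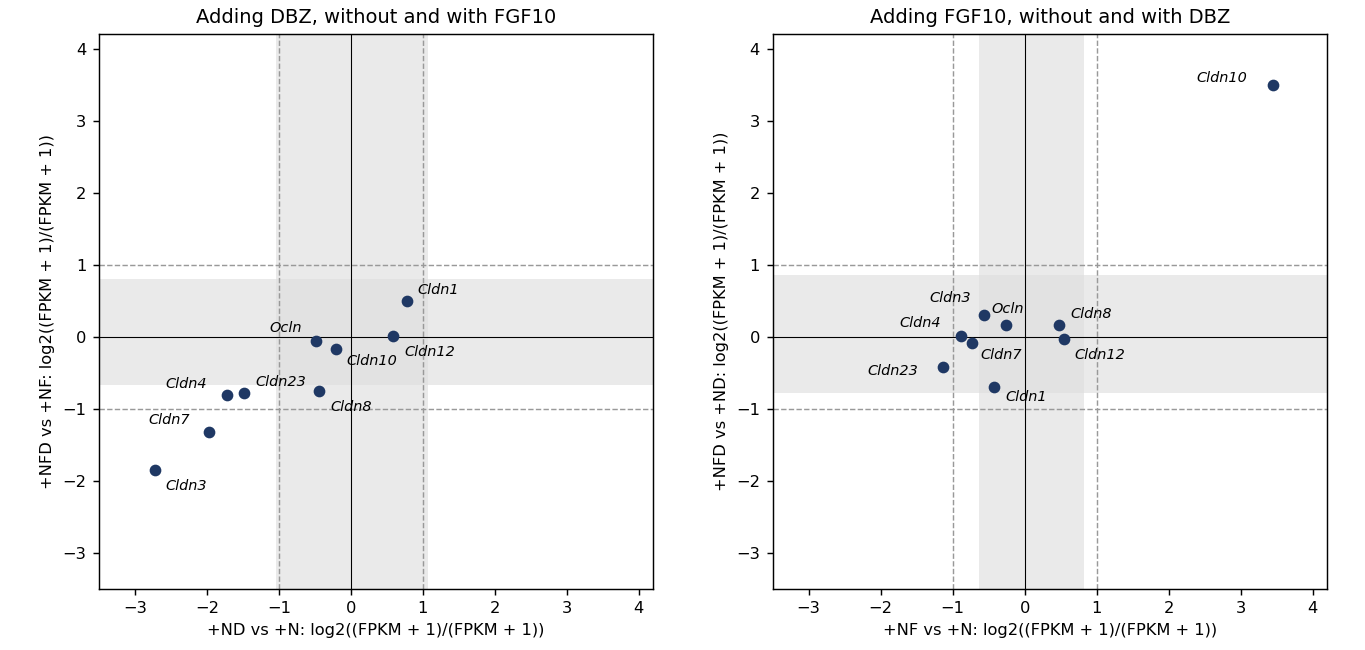
Log2 ratios of the 9 genes above 0, with DBZ added on the left (+ND vs +N against +NFD vs +NF) and FGF10 added on the right (+NF vs +N against +NFD vs +ND); each point is 1 gene, dashed lines mark a 2-fold ratio and grey bands the central 90% of all genes tested. On the left Cldn3, Cldn7, Cldn4 and Cldn23 lie to the lower left, with Cldn3 at -2.72 and -1.85, and on the right Cldn10 lies alone near 3.45 and 3.49; Cldn10 did not pass the filter in +ND vs +N.

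FGF10 was the factor with which the level of 1 claudin gene differed most. Cldn10 (chromosome 14, 118787908 to 118875489), whose alternative first exons give claudins that form anion or cation pores, was at 0.157 FPKM in +N and 0 in +ND, against 11.6 in +NF and 10.2 in +NFD. Both libraries with FGF10 stood above both without it. In +NF relative to +N its log2 ratio was 3.45, and its linear ratio of 74.0 (39.5 to 166) rests on about 708 fragments against 9. In +NFD relative to +ND it was at least 160-fold higher, taking 3 fragments in the +ND library, or 0.0638 FPKM, as the floor; the fitted log2 ratio of 3.49 depends on the pseudocount. In both comparisons Cldn10 lay above 99.8% of the genes tested. It passed the filter only through the library with FGF10, so this rank is partly set by the filter and adds no support.

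Between +NF and +N, 9 genes passed the filter, 1 was called higher (Cldn10) and 1 lower (Cldn23). The shares among 13090 genes tested were 2.76% higher and 2.44% lower, or 1.89% and 3.15% with centred ratios. Cldn23 was at 5.98 FPKM in +N and 2.19 in +NF, a log2 ratio of -1.13 and a linear ratio of 0.367 (0.293 to 0.454). Cldn4 had a log2 ratio of -0.89 and was past the 2-fold limit only when ratios were centred on the median of all genes (-1.003). Cldn7 was at -0.73, Cldn3 at -0.56, Cldn1 at -0.42 and Ocln at -0.26 on the same log2 scale. Cldn8 and Cldn12 had ratios above 0, at 0.48 and 0.55. This comparison shares the +N library with +ND relative to +N, so the 2 sets of ratios are not independent.

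With DBZ in both media, +NFD relative to +ND, 9 genes passed, 1 was called higher (Cldn10) and 0 lower. Among all 13293 genes tested 3.39% were called higher and 3.11% lower, and with centred ratios 2.60% and 3.81%. Cldn4 stood at 98.5 and 99.5 FPKM, a log2 ratio of 0.01 that became -0.08 with centred ratios, and Cldn7 at 12.9 and 12.1 FPKM, a log2 ratio of -0.09. Cldn3 was at 1.22 and 1.75 FPKM, and its linear ratio of 1.43 had a counting interval of 0.929 to 2.23, so no difference was detectable at this depth. Cldn1 was lower with FGF10 here as well, with a log2 ratio of -0.70. The log2 ratio of Cldn23 was -0.43, of Cldn8 0.16, of Ocln 0.16 and of Cldn12 -0.04.

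The signs of the log2 ratios on adding FGF10 were opposite without and with DBZ for 4 genes (Cldn3, Cldn4, Cldn12 and Ocln), both above 0 for 2 (Cldn8 and Cldn10) and both below 0 for 3 (Cldn1, Cldn7 and Cldn23). The share of all genes with the same sign was 55.2%. The sign of Cldn4 with DBZ turned when ratios were centred, so that it then belonged with the 3 below 0.

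With both factors added, +NFD relative to +N, 4 of 9 genes were called lower (Cldn3, Cldn4, Cldn7 and Cldn23) and 1 higher (Cldn10). Among 13358 genes tested 4.03% were called lower and 5.85% higher, or 5.35% and 4.04% with centred ratios. The log2 ratio was -2.42 for Cldn3, -2.05 for Cldn7, -1.91 for Cldn23 and -1.70 for Cldn4. Cldn12 was at 0.55, Ocln at -0.33 and Cldn8 at -0.27. Cldn1, higher in +ND and lower in +NF than in +N, stood at 43.7 FPKM in +NFD and 41.5 in +N, a log2 ratio of 0.07 that was -0.10 with centred ratios and -0.03 with upper-quartile scaling.

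Ratios of 2 genes within 1 library do not depend on the scaling between libraries. Cldn4 was 7.87 times as abundant as Cldn1 in +N and 5.72 times in +NF, but 1.37 times in +ND and 2.28 times in +NFD. Cldn4 relative to Cldn7 varied less, from 5.57 in +NF to 8.24 in +NFD. Cldn4 relative to Cldn8 was 3.06 in +N and between 1.13 and 1.25 in the other 3 libraries. Cldn8 relative to Cldn1 was 2.58 in +N and 4.86 in +NF, against 1.10 in +ND and 2.02 in +NFD.

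As shares of the summed FPKM of the 10 genes, Cldn4 made up 57.0% in +N and 40.3% in +NF, against 34.1% in +ND and 35.3% in +NFD. Cldn1 made up 7.24% and 7.04% without DBZ and 24.8% and 15.5% with it, so its share was higher in both media with DBZ than in both without. Cldn8 made up 18.6% in +N and between 27.2% and 34.3% in the other media. Cldn7 made up 9.28% in +N and 7.23% in +NF, and 4.47% and 4.29% in +ND and +NFD. The sum itself was 573 FPKM in +N, 437 in +NF, 289 in +ND and 282 in +NFD, so both media with DBZ had the lower totals.

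**Figure D3:**
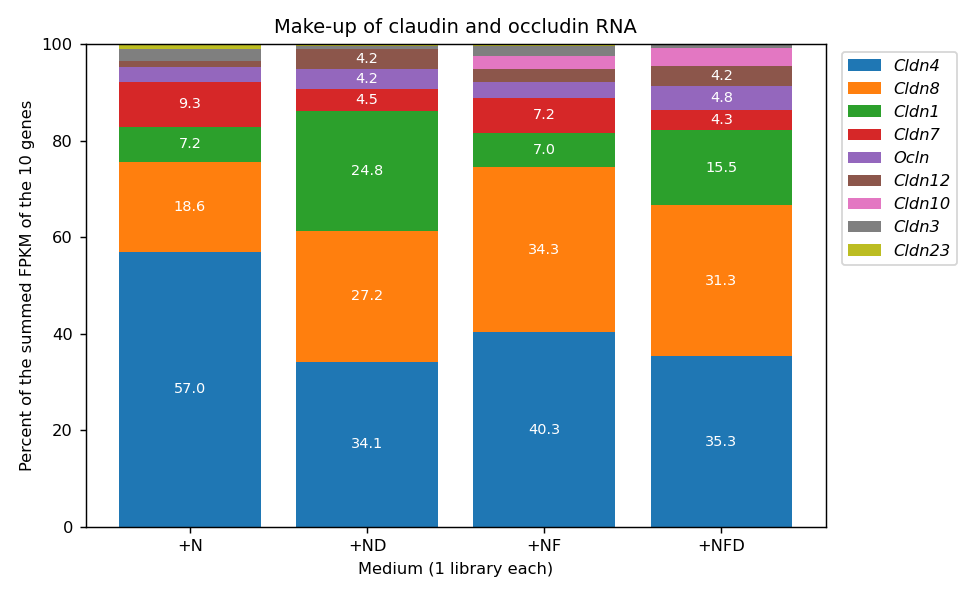
Share of each gene in the summed FPKM of the 10 genes (vertical axis, percent) in each of the 4 libraries; stacked segments stand for genes, and shares above 4% are printed. Cldn4 takes 57.0% of the +N bar against 34.1% and 35.3% of the +ND and +NFD bars, and Cldn1 takes 7.24% against 24.8% and 15.5%.

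Cldn16 (chromosome 16, 26463135 to 26482765), which in the kidney lets magnesium pass between cells and has also been described in enamel-forming ameloblasts, was listed at 0 in all 4 libraries. A count of 0 allows up to 3 fragments, or between 0.0879 and 0.116 FPKM for its longest transcript. It was therefore not detectable at this depth, also in +NFD, where 5 of 7 ameloblast markers reached an FPKM of 1, against 2 of 7 in each other medium. These markers did not move together. In +NFD relative to +N, 3 were called higher (Amelx, Ambn and Enam) and 2 lower, against 5.85% and 4.03% of all genes. The 2 lower markers were Odam, at 6221 FPKM in +N and 2602 in +NFD, and Amtn, at 7.01 and 1.13. Cldn1, the neighbour of Cldn16, which starts 91.3 kb away on the opposite strand with no other listed gene between them, was at 30.8 FPKM or more in all 4.

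Cldn3 and Cldn4 are neighbours too, 39.3 kb apart on chromosome 5 and transcribed away from each other, with no listed gene between them. Both were lower in the media with DBZ, but not to the same extent, since Cldn4 relative to Cldn3 was 23.8 in +N, 19.7 in +NF, 80.5 in +ND and 56.8 in +NFD. Cldn8 lies 53.8 kb from Cldn17 on the same strand of chromosome 16. Their directions differed on adding DBZ, with Cldn17 relative to Cldn8 at 0.122 in +N and 0.336 in +ND, and at 0.136 in +NF and 0.261 in +NFD.

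Beyond the 10 genes, the table lists 24 other claudin symbols, of which 3 reached an FPKM of 1 and 14 were at 0 in all 4 libraries. Cldn6, a claudin of embryonic epithelia, was at 3.22 FPKM in +N and 12.9 in +NF, against 0.281 in +ND and 3.29 in +NFD. Its log2 ratio on adding DBZ was -1.72 without and -1.70 with FGF10, and on adding FGF10 1.72 without and 1.74 with DBZ, but these near-equal values come with the pseudocount on a level of 0.281 FPKM. On the linear scale Cldn6 was 11.5-fold lower with DBZ without FGF10 and 3.93-fold lower with it, and 4.02-fold higher with FGF10 without DBZ and 11.7-fold higher with it. In +NFD and +N it was at like levels (log2 ratio 0.03). Cldn6 thus had a low value with DBZ, as Cldn3, Cldn4 and Cldn7 did, and a high value with FGF10, as Cldn10 did. Cldn17, which encodes an anion-pore claudin, was at 13.1, 26.4, 20.4 and 23.0 FPKM in the order +N, +ND, +NF, +NFD, lowest in +N. Cldn34c1 was at 1.21 FPKM in +NF and between 0.484 and 0.604 in the others, and its close paralogs can share fragments with it. Cldn2, a cation-pore claudin singled out after its values were seen, was at 0.875 FPKM in +N from about 73 fragments, and at 0.0215 or less in the other 3 libraries.

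A list of 43 other tight junction genes was followed in the same libraries. On adding DBZ without FGF10, 39 passed the filter, 11 were called lower and 1 higher, against 5.29% and 5.88% of all genes, with a median log2 ratio of -0.46. On adding DBZ with FGF10, 42 passed, 1 was called lower and 1 higher, with a median of -0.19. These counts are near the shares among all genes, 2.69% lower and 3.72% higher, and the count higher was 3 with a pseudocount of 0.1 or none and 0 with a filter at 5 FPKM. The medians of all genes in the 2 comparisons were 0.10 and 0.05.

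Among the other membrane proteins of the junction, F11r, which encodes junctional adhesion molecule A, was the most abundant, at 257 FPKM in +N and 203 in +NF, against 119 in +ND and 156 in +NFD. Its log2 ratio on adding DBZ was -1.11 without FGF10 and -0.38 with it. Ildr1, an angulin of tricellular junctions, was at 11.7, 2.10, 10.2 and 5.59 FPKM in the order +N, +ND, +NF, +NFD, with log2 ratios of -2.03 and -0.77. Marveld3, a relative of occludin, was at 13.9, 5.20, 14.1 and 8.11 FPKM, with log2 ratios of -1.27 and -0.73. Lsr, another angulin, and Cxadr, an adhesion protein that is also a virus receptor, stayed within 2-fold in every comparison, with Lsr between 63.9 and 102 FPKM and Cxadr between 24.6 and 36.5. Jam2 was higher in +NF than in +N (11.3 and 4.57 FPKM), and Jam3 was highest in +NFD, at 2.37 FPKM. Ildr2 reached 1.19 FPKM in +NFD and was below 0.3 FPKM elsewhere.

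Of the 24 scaffold genes that passed between +ND and +N, 2 were called lower and 0 higher, near the shares of 5.29% and 5.88% among all genes. Their median log2 ratio was -0.21, against -0.98 for the 7 other membrane protein genes that passed. Tjp3, which encodes ZO-3, was at 8.37 FPKM in +N and 3.56 in +NF, against 1.16 in +ND and 1.87 in +NFD. Its log2 ratio was -2.12 for +ND relative to +N. Cgnl1, the gene of paracingulin, was at 16.5 FPKM in +N and 23.6 in +NF, against 5.26 in +ND and 11.9 in +NFD. Tjp1, which encodes ZO-1, showed no such ratio and was between 15.9 and 18.4 FPKM. The scaffold genes with the highest level in any library were Ybx3, the ZO-1 associated Y-box factor, between 112 and 170 FPKM, Amotl1, between 36.7 and 65.4, and Crb3, an apical polarity protein, between 26.5 and 53.1. Mpdz was at 2.46 FPKM in +N and 6.51 in +NF.

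Partners of claudins and the proteases and inhibitors that act on them were called lower in 6 of 8 cases in +ND relative to +N. One further gene, Lnx1, was called higher, and the shares among all genes were 5.29% lower and 5.88% higher. On adding DBZ with FGF10, 1 of the 8 was called lower (Epcam) and 0 higher, against 2.69% and 3.72% of all genes. Epcam, whose protein binds claudin-7, was at 122 FPKM in +N and 218 in +NF, against 54.8 in +ND and 98.4 in +NFD. Its log2 ratios on adding DBZ were -1.15 without and -1.14 with FGF10, and on adding FGF10 0.83 in both cases. St14, the membrane protease matriptase that cleaves EpCAM, was at 79.0, 35.3, 88.7 and 63.0 FPKM in the order +N, +ND, +NF, +NFD. Its inhibitors were lower in +ND as well, with Spint1 at 133, 43.4, 93.2 and 58.6 FPKM and Spint2 at 876, 431, 813 and 669 FPKM. Wnk4, a kinase that acts on claudins in the kidney, was at 7.85 FPKM in +N and between 1.46 and 2.73 in the other 3 libraries. Lnx1, a ubiquitin ligase with claudins among its targets, had the opposite direction, at 1.06 FPKM in +N and 1.32 in +NF, against 6.02 in +ND and 3.21 in +NFD.

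**Figure D4:**
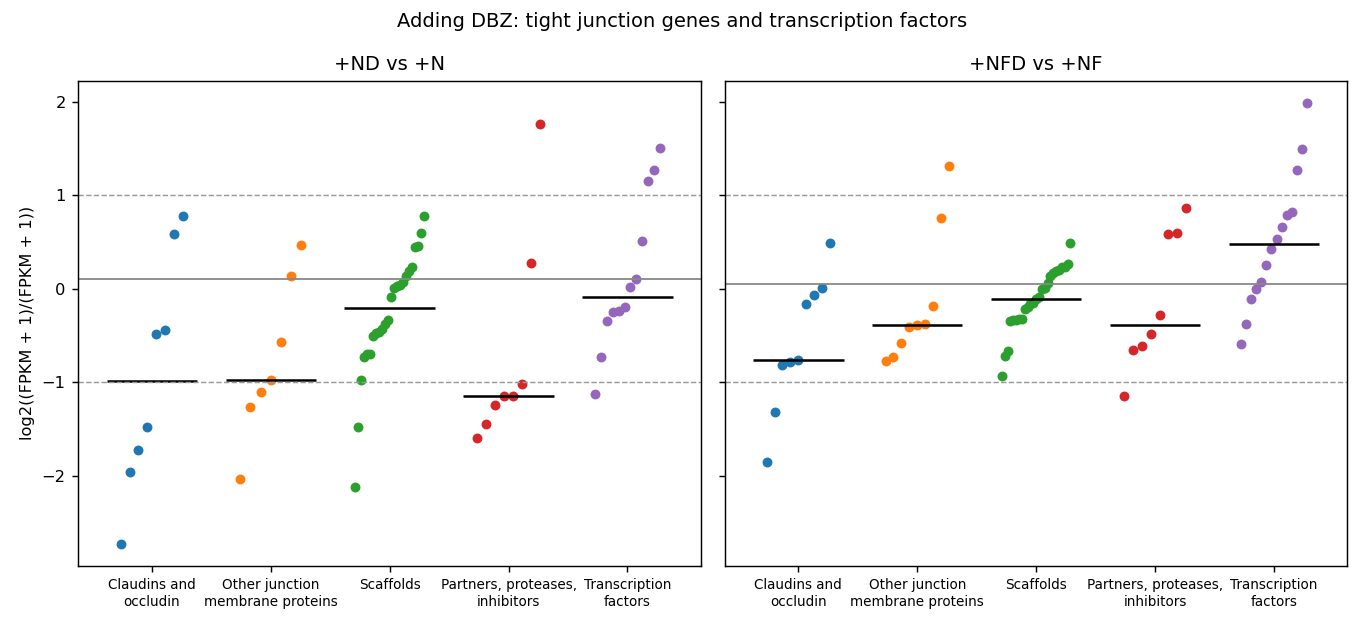
Log2 ratios on adding DBZ (vertical axis) without FGF10 (left, +ND vs +N) and with FGF10 (right, +NFD vs +NF) for the 10 genes and 4 lists; each point is a gene that passed the filter on low values, black bars are medians of those genes, dashed lines mark a 2-fold ratio and the grey line is the median of all genes tested. The medians of claudins and occludin are -0.98 and -0.76, below the scaffold medians of -0.21 and -0.11 in both panels.

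Of 15 transcription factors known to act on claudin or occludin genes, 12 passed the filter between +ND and +N, 3 were called higher (Ovol1, Klf4 and Snai2) and 1 lower (Cebpa). Among all genes 5.88% were called higher and 5.29% lower. Ovol1, an epithelial zinc-finger repressor, was at 11.7 FPKM in +N and 6.49 in +NF, against 35.1 in +ND and 20.2 in +NFD, with log2 ratios of 1.51 and 1.50 on adding DBZ without and with FGF10. Klf4, a factor of barrier formation, was at 27.6, 68.2, 14.0 and 35.3 FPKM, with log2 ratios of 1.27 in both cases. Like Cldn1, these 2 genes were highest in +ND and lowest in +NF. Snai2, a Snail repressor, was at 28.5, 64.7, 32.1 and 33.8 FPKM, high in +ND alone. Cebpa was at 38.4 FPKM in +N and 17.0 in +ND, and Grhl1 at 23.6 in +N and 10.8 in +NF. Snai1 reached 4.92 FPKM in +NFD and was at 1.06 or less elsewhere, and Twist1 reached 3.01 FPKM there against 1.28 or less. The sum of 8 fibroblast markers was also highest in +NFD, at 378 FPKM against 94.6 to 153 in the other libraries, and its part in these values was not tested. The abundant factors Klf5 (123 to 165 FPKM), Elf3 (46.9 to 84.3) and Grhl2 (18.4 to 26.7), which activate epithelial genes, stayed within 2-fold in every comparison.

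Marker lists of cell types moved between the same libraries as the claudins. The 11 markers of simple, ductal or secretory epithelium summed to 880 FPKM in +N and 1241 in +NF, against 115 in +ND and 368 in +NFD. On adding DBZ, 8 of the 10 that passed were called lower without FGF10 and 7 of 9 with it, and Krt20 was at 0 in both media with DBZ. The 12 suprabasal and granular keratinocyte markers summed to 930, 3125, 127 and 865 FPKM, with 8 called higher and 3 lower on adding DBZ without FGF10, and 10 higher and 0 lower with it. Among all genes 5.29% were called lower and 5.88% higher without FGF10, and 2.69% and 3.72% with it. The summed simple-epithelium markers were thus lower with DBZ, like Cldn3, Cldn4 and Cldn7, and the summed keratinocyte markers were highest in +ND and lowest in +NF, like Cldn1. The likeness is partial. The simple-epithelium sum was higher in +NF than in +N, where Cldn3, Cldn4 and Cldn7 were lower. Among the keratinocyte markers, Krt10, Krt13 and Krt4 were highest in +N, and Krtdap alone stood at 1982 FPKM in +ND. Macrophage markers summed to between 415 and 661 FPKM. The part of these marker changes in the claudin ratios was not tested.

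For the genes whose log2 level spanned at least 1 over the 4 libraries, the genes of most similar profile were sought among 9682 that reached an FPKM of 5. The measure was the Euclidean distance between log2(FPKM + 1) profiles, each centred on its own mean, over 4 libraries. For Cldn1 these were Pim1 (0.067), a protein kinase gene, Glo1 (0.077), the gene of glyoxalase, and Tmem65 (0.13). For Cldn4 they were Tmprss2 (0.10), a membrane serine protease gene, Rhbg (0.18), an ammonium transporter gene, and Nrep (0.21). Cldn7 was nearest to Pfn2 (0.14), Ifngr1 (0.16) and Cadm4 (0.16), and Cldn3 to B4galnt3 (0.13), Pf4 (0.16) and Clic6 (0.21). Cldn23 was nearest to Aldh1a3 (0.14), S100a16 (0.19) and Oasl1 (0.23). Over 4 points near matches are frequent. For Cldn10 the nearest was Cyp26a1 at 0.20, followed by Cyp26c1 at 0.75 and Sorbs3 at 1.01. Distances were not scaled for the size of a change, and Cldn10 had the widest log2 range of the set (3.66), so fewer genes can lie near it. Cyp26a1 reached an FPKM of 5 only in the libraries with FGF10, so its likeness is partly set by that limit. Cyp26a1, which encodes an enzyme that breaks down retinoic acid, was at 0.267 FPKM in +N and 0.145 in +ND, against 11.2 in +NF and 10.2 in +NFD, close to the levels of Cldn10 itself.

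Within the set, the smallest distances were those of Cldn4 and Cldn23 (0.38), Cldn4 and Cldn7 (0.40), Cldn8 and Ocln (0.62), Cldn7 and Cldn23 (0.63) and Cldn3 and Cldn7 (0.72). Cldn4, Cldn7, Cldn23 and Cldn3 were thus linked to each other by their nearest profiles, Cldn8 was linked to Ocln, and Cldn10 was at least 3.17 from every other gene of the set that was above 0.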

How the data were processed

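RNA of DEOs was measured by RNA-seq in 4 libraries, 1 per medium. Read quality was examined by the authors in FastQC 0.11.9, adapters were removed in Trim Galore 0.6.5, alignment to GRCm38 used TopHat2 2.1.1, and the deposited FPKM values per gene are from Cufflinks; the annotation release, strand setting and Cufflinks options are not given in the sources used here. FPKM divides by transcript length and library size, so short, low genes carry large counting error, and very abundant transcripts lower the values of the rest.

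From these FPKM values, entries with the same symbol were summed (123 symbols), and ratios were computed as log2 with a pseudocount of 1 for genes whose higher library reached an FPKM of 1. Positions, transcript lengths and overlaps came from GENCODE M21 on GRCm38, which held 46994 of 47493 identifiers. Depth was estimated from the value of 1 fragment in 8367 genes with a single transcript of at least 1000 nt (FPKM times length in kb of 0.0364 for +N, 0.0453 for +ND, 0.0349 for +NF and 0.0344 for +NFD). Fragment numbers of single genes follow from it and from the longest transcript and are approximate. Patj and Afdn are listed as Inadl and Mllt4.

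The 10 genes, the gene lists and the marker lists were chosen with earlier results of these data known. All 10 genes are named. Other claudins are named at an FPKM of 1 in any library, and listed genes if past 2-fold in any comparison or among the 3 of their group with the highest level in any library. Some genes that the rule names are not reported here. Cldn2, Cldn5, Grhl2 and Tjp1 are named outside it, and were chosen after their values were seen. The alternatives were a pseudocount of 0.1 or none, no filter or one at 5 FPKM, upper-quartile scaling, centred ratios, and the highest entry per symbol. The ratio code was run on a simulated library of 12572 genes with log2 noise of 0.1 (standard deviation). All 200 genes set 4-fold apart, each at 5 FPKM or more before the change, and 0 others were called. This outcome follows from the settings. It shows that the code runs as intended, not how reliable calls between single libraries are. Software was Python 3.11.15 with scipy 1.17.1, numpy 2.4.6, matplotlib 3.10.9 and pandas 2.3.3.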

Additional observations from a re-analysis of the deposited data

Results flagged for a closer look

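On adding FGF10, 4 genes of the set had log2 ratios of opposite sign without and with DBZ. Among 13748 genes the sign was the same for 55.2%, so opposite signs were common among all genes too. Cldn3 was at -0.56 without DBZ and 0.31 with it. Cldn4 was at -0.89 and 0.01, and the latter was -0.08 with centred ratios. Cldn12 was at 0.55 and -0.04, and Ocln at -0.26 and 0.16. With 1 library per medium these differences were not tested, and all 8 ratios were inside the 2-fold limit.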

How the results depend on the processing

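Of 70 counts of claudin and occludin genes past the 2-fold limit over the 7 alternatives, 68 stayed within 1.5 times the reported count. Some of these counts could not change. Each gene has 1 entry, so the highest entry per symbol gives the same values. Without the filter, a gene below 1 FPKM in both libraries cannot pass the limit with a pseudocount of 1. The count lower in +NF than in +N was 2 instead of 1 with centred ratios, where Cldn4 came to -1.003, and the count higher in +NFD than in +ND was 0 instead of 1 without a pseudocount, which leaves out Cldn10 because it is at 0 in +ND. Cldn23 in +NFD relative to +NF was past the limit at -1.26 with a pseudocount of 0.1. The median of the genes that passed was -0.46 without the filter in both comparisons of DBZ, and -0.46 when filtered at 5 FPKM in +NFD relative to +NF. For all genes, a pseudocount of 0.1 gave 1212 higher in +ND than in +N instead of 774, and 712 higher and 480 lower in +NF than in +N instead of 361 and 319. It also gave 1271 higher in +NFD than in +N instead of 782 and 818 higher in +NFD than in +ND instead of 450. The transcription factors called higher in +NFD than in +NF were 6 instead of 3. Depth limits Cldn3 in +ND, Cldn23 in +NFD and Cldn10 in +N, which rest on about 34, 46 and 9 fragments. No paired analysis was possible because the media share only 1 replicate number; a fit of DBZ with the presence of FGF10 as a block, which would leave 1 residual degree of freedom, was not run.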
